A study of Mus musculus with 5 samples.

Results

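The glucose transporter gene Slc2a1 and the enzyme genes of glycolysis were followed in GFP-positive cells sorted from newborn mouse lungs. The genes asked for were Slc2a1, Hk1, Hk2, Gpi1, Pfkl, Pfkp, Aldoa, Pgk1, Eno1 and Ldha, and every probe set (the group of short probes that reports one transcript) carrying exactly 1 of these symbols was taken. This gave 21 of 34958 probe sets, for 8 of 18194 genes; Gpi1 and Eno1 were not analysed here. The cells came from pups of SPC-GFP mice mated with outbred ICR mice, on postnatal day 2, and all 5 samples had this genotype and age and no treatment. The transgene takes its name from surfactant protein C, which Sftpc encodes and alveolar type 2 cells make. Each of 5 biological replicates had 1 Affymetrix array, and all belong to 1 group, so the comparisons were signal against background and replicate against replicate. The labels do not say whether a replicate was 1 pup or a pool, and p-values measure only the spread between these 5 samples. The titles call the cells alveolar type 2 and the design text calls them ciliated.

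Glycolysis splits glucose in the cytosol into pyruvate and yields ATP without oxygen. The transporter encoded by Slc2a1 lets glucose in, hexokinases trap it as glucose 6-phosphate, phosphofructokinase commits it to breakdown, and lactate dehydrogenase turns pyruvate into lactate while restoring the cofactor NAD+. In the newborn lung alveolar type 2 cells use glucose and stored glycogen as fuel and as carbon for surfactant lipids, and several glycolysis genes are textbook targets of the hypoxia-inducible factors, which bind sites with the core letters ACGTG or GCGTG.

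The stretches of 250 bases before annotated gene starts (RefSeq, GRCm38.p6) are shown for the 5 measured genes that hold ACGTG on either strand there and, for contrast, for Pfkp, which does not. Capitals mark each ACGTG or its reverse complement CACGT, and all are written 5′ to 3′ along the gene. The other form, GCGTG, is not marked, and the Pfkp stretch holds 3 matches of it.
Slc2a1, chr4:119108495-119108744, plus strand: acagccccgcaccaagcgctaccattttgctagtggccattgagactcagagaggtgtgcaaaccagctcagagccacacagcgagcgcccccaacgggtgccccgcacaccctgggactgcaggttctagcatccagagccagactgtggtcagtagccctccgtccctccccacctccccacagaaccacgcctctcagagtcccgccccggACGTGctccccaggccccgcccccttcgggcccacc
Hk2, chr6:82774455-82774704, minus strand: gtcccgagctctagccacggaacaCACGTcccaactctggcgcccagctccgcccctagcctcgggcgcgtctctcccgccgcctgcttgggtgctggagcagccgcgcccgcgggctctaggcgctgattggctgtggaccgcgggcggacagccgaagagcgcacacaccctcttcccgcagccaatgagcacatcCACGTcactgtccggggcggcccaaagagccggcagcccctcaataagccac
Aldoa, chr7:126799255-126799504, minus strand: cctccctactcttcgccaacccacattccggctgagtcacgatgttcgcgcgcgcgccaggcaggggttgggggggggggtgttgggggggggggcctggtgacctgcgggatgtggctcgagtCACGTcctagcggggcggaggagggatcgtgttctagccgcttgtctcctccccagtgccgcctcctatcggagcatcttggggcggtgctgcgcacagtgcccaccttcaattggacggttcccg
Pgk1, chrX:106186850-106187099, plus strand: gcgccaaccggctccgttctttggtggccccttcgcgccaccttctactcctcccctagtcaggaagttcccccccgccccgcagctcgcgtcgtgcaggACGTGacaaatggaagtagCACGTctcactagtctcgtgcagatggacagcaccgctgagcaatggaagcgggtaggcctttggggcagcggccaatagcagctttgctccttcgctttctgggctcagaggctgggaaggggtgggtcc
Ldha, chr7:46845554-46845803, plus strand: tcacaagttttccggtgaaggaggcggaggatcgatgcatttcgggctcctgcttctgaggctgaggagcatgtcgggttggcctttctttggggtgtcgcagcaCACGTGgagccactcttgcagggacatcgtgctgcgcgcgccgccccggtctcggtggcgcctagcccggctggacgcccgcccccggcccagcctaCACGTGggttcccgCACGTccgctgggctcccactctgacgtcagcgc
Pfkp, chr13:6648772-6649021, minus strand: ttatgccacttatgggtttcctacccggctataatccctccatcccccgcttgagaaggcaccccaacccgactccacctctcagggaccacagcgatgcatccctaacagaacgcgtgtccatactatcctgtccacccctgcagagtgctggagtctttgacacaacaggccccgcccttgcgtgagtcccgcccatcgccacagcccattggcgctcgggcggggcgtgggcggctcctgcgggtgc

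All 8 measured genes had an entry in the promoter table, with 12 annotated starts in all. At least 1 start held ACGTG in 5 genes (Slc2a1, Hk2, Aldoa, Pgk1 and Ldha). Of the 12 stretches 6 held it, against 16.6% of the 32851 stretches in the table. The Ldha start not shown and 1 of the Aldoa starts not shown held none. Percentages here are per stretch, and no share per gene was computed for ACGTG or GCGTG. In Ldha the palindrome CACGTG, which reads as ACGTG on both strands, stood at 2 places, and this motif was found in 6.02% of all stretches. In Pgk1 the matches began 150 and 131 bases before the start. The letters GCGTG were present in 5 of the 8 genes and in 5 of the 12 stretches, against 28.2% of all stretches; Hk1, Pfkl and Pfkp held this form and not ACGTG. The Aldoa stretch shown overlaps the one at a neighbouring start, and their ACGTG match is the same site, counted at both starts. G and C made up 62.8% to 69.6% of the 6 stretches shown, against a median of 52.4% over all stretches, and the part of base composition in these counts was not tested. A match describes letters and is no evidence that a factor bound.

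Deposited values were log2 signals, a base inferred from their range, and array medians ran from 7.12 to 7.19. Background was set per array at the 95th percentile over 74 genes of chemosensory receptors, which gave 5.13 to 5.32. The probe set with the highest mean stood for a gene, and different probe sets were not ranked by signal. All 11 measured alveolar type 2 markers were above background, with a mean log2 level of the list between 13.94 and 14.09 per array. All 11 measured ciliated markers were above it as well, with a mean level between 8.76 and 10.10, highest in replicate 1. Of genes outside the receptor set, 78.2% were above background, so such counts say little on cell type. Endothelial markers (10 of 10 above background) had a mean level of 10.29 to 10.63. Macrophage and leukocyte markers (9 of 10) had 9.55 to 10.28. In the control probe sets of the array, signal at the 3′ end exceeded that at the 5′ end by 1.27, 1.52, 1.67, 1.39 and 1.60 log2 units for Gapdh and by 0.60, 0.54, 0.84, 0.55 and 0.56 for Actb in replicates 1 to 5, so replicate 3 was highest in both and stood apart in Actb. Across all genes, Pearson's r between pairs of arrays was 0.988 to 0.994.

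All 8 genes gave signal above background on all 5 arrays. The limma one-sided test called 8 of 8 at a Benjamini-Hochberg adjusted p under 0.05 (highest adjusted p = 2.8e-12, for Hk2), against 78.2% of the 18120 genes outside the receptor set. Their median excess over background was 6.50 log2 units, against 3.71 for all genes. Tested one by one, all 21 probe sets were called too, against 75.8% of the 34876 probe sets outside the receptor set. Since most genes passed, a call of 8 of 8 says only that these transcripts were measurable in the sort. In bulk RNA, fewer cells of a type and less RNA per cell cannot be told apart.

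**Figure D1:**
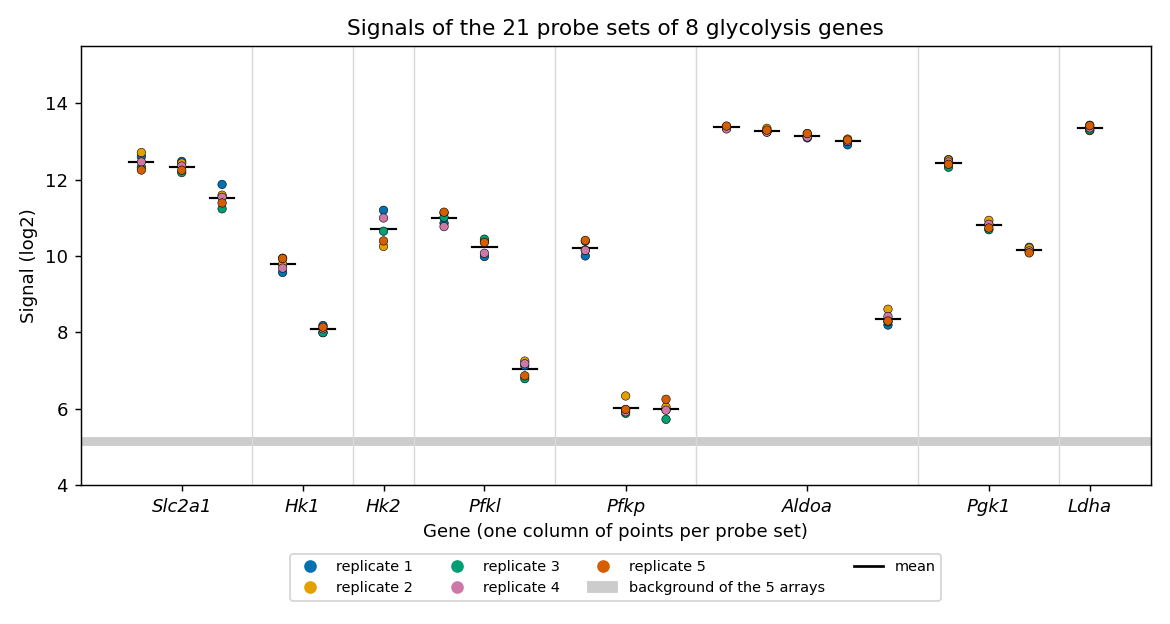
Log2 signal (vertical axis) of all 21 probe sets of the 8 measured genes (horizontal axis), with 1 point per replicate, a black bar at the mean and a grey band for the background of the 5 arrays at the level of single probe sets. Every probe set mean lies above the band, and the lowest 2, both of Pfkp, lie just above it at 5.99 and 6.02.

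Slc2a1 encodes GLUT1, the facilitative glucose transporter of many growing tissues. Its signals were 12.61, 12.71, 12.32, 12.46 and 12.25 in replicates 1 to 5 (12.47 ± 0.19, SD, n = 5), 7.26 ± 0.074 log2 units above background (SE, limma adjusted p = 2e-15). Replicates 1 and 2 were highest and replicates 3 and 5 lowest, a 1.37-fold range. The other probe sets of the gene averaged 12.34 and 11.53, and both were highest in replicate 1 and lowest in replicate 3, so the order of replicates was similar and not identical. The SD of the representative probe set was 0.19, against 0.095 fitted for genes of that signal, a variance ratio of 4.04 (limma F test, adjusted p = 0.968). The ratio was 1.71 with the median over the gene's probe sets and 2.60 without replicate 2.

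Of the hexokinases, Hk2 differed most between the replicates and Hk1 went another way. Hk2 encodes the hexokinase that is abundant in muscle and in growing cells. It had 11.20, 10.25, 10.65, 10.996 and 10.40 in replicates 1 to 5 (10.70 ± 0.40, n = 5), with replicates 1 and 4 highest and replicates 2 and 5 lowest, a 1.93-fold range. Its SD was 0.40, against a fitted 0.14 for that signal, a variance ratio of 8.62. This ratio had an unadjusted p of 0.0268 in the one-sided F test and an adjusted p of 0.843 (limma, over all genes), so the spread of Hk2 did not pass. A single probe set measured it.

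Hk1, the hexokinase found in most tissues, had 9.57, 9.79, 9.94, 9.68 and 9.93 in replicates 1 to 5 (9.78 ± 0.16, n = 5). Replicates 1 and 4 were lowest, where Hk2 was highest. Its variance ratio was 0.97, and 0.60 without replicate 1 and 0.16 with the median over its probe sets. The second Hk1 probe set averaged 8.08 ± 0.084 and was highest in replicate 1 and lowest in replicate 3, the reverse of the first. The opposite order of Hk1 and Hk2 therefore rests on 1 probe set each.

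Phosphofructokinase, which adds the second phosphate, was measured for the liver-type subunit Pfkl and the platelet-type subunit Pfkp. Pfkl had 10.86, 11.13, 11.01, 10.77 and 11.15 in replicates 1 to 5 (10.98 ± 0.17, n = 5), a 1.30-fold range. Pfkp had 10.003, 10.16, 10.39, 10.15 and 10.41 (10.22 ± 0.17, n = 5), a 1.33-fold range. In both, replicate 5 was highest and replicates 1 and 4 were lowest. For Pfkp, replicates 4 and 2 were nearly tied (10.147 and 10.160). Variance ratios of 1.66 and 1.36 did not pass the F test (limma adjusted p = 0.996 for each). The Pfkl ratio was 0.95 without replicate 4 and 2.61 without replicate 3. Of the other 2 Pfkl probe sets, the one averaging 10.25 kept replicates 1 and 4 lowest, and the one averaging 7.04 did not. The other Pfkp probe sets averaged 5.99 and 6.02, less than 1 log2 unit above background, and add little on the order of replicates.

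Aldolase A, which splits the 6-carbon sugar, was the steadiest of the 8. Aldoa read 13.35, 13.39, 13.36, 13.33 and 13.40 in replicates 1 to 5 (13.37 ± 0.031, n = 5), a 1.05-fold range, and its SD was below the fitted 0.077. Its 5 probe sets are all of the _x_at type, which can hybridise to related transcripts; 4 of them averaged 13.00 to 13.37 and the fifth 8.36. The representative lay 1.82 log2 units below the mean of the highest values on the arrays, where differences can be compressed.

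Pgk1 and Ldha, of later steps, varied less than the SD fitted for their signals. Pgk1 encodes phosphoglycerate kinase, the first enzyme of glycolysis that makes ATP, and had 12.52, 12.51, 12.32, 12.46 and 12.40 in replicates 1 to 5 (12.45 ± 0.083, n = 5). Replicate 3 was lowest in 2 of its 3 probe sets, and the gene ranged 1.15-fold. Ldha encodes the lactate dehydrogenase subunit that favours the making of lactate, and had 13.42, 13.28, 13.30, 13.36 and 13.41 (13.36 ± 0.064, n = 5), a 1.10-fold range with replicate 1 highest. Variance ratios were 0.77 for Pgk1 (0.39 without replicate 3) and 0.69 for Ldha. Ldha had 1 probe set. Like that of Aldoa it lay near the top, 1.83 log2 units below the mean of the highest values on the arrays.

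**Figure D2:**
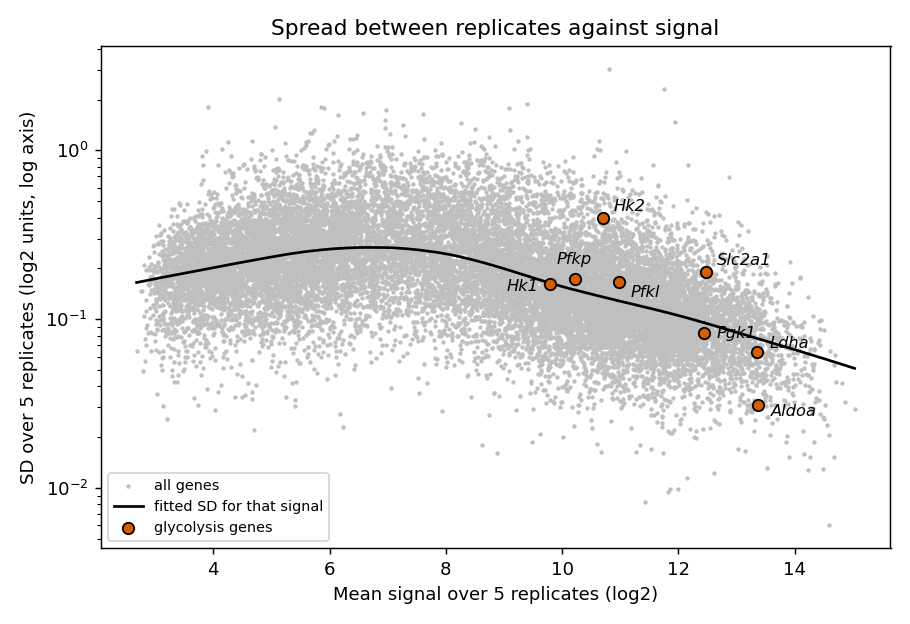
SD over the 5 replicates (vertical log axis, log2 units) against mean log2 signal (horizontal axis) for all 18194 genes in grey, with the SD limma fitted for each signal as a black line and the 8 glycolysis genes in orange. Hk2 (0.40) and Slc2a1 (0.19) lie above the line and Aldoa (0.031) well below it.

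Over the 8 genes, the spread between replicates lay close to that of all genes. The median SD was 0.16, against 0.17 for all genes, whose signals were lower, so these SDs are not matched for signal. Relative to the variance fitted for each signal, the median ratio was 1.17, against 0.98 for all genes. Of the 8 variance ratios, 4 exceeded 1, against 49.4% of all genes. The F test called 0 of 8 genes after adjustment, against 0% of all 18194 genes (limma, with or without the robust fit); at an unadjusted p under 0.05 it gave 1 of 8, which was Hk2, against 5.58% of all genes.

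The genes did not go up and down as a block. For each array the deviations of the 8 genes were averaged after subtracting the median deviation of the array. This mean was 0.033, -0.011, -0.0010, 0.00066 and -0.013 log2 units in replicates 1 to 5, a range of 0.046. Within this flat mean, genes deviated in both directions in every replicate. In replicate 1 Slc2a1, Hk2, Pgk1 and Ldha deviated by 0.14, 0.51, 0.086 and 0.076, while Hk1, Pfkl, Pfkp and Aldoa deviated by -0.21, -0.12, -0.21 and -0.011. Replicate 1 was chosen as the example after the values were seen, and no split of the genes was tested. Replicates 1 and 4 held the 2 lowest values in 4 of 8 genes (Hk1, Pfkl, Pfkp and Aldoa), against 18.1% of all 14171 genes above background. By probe set this held in 1 of 2 for Hk1, 2 of 3 for Pfkl, 1 of 3 for Pfkp and 4 of 5 for Aldoa. For Pfkp it held only in the signals as deposited. After the array's median deviation was subtracted, replicate 2 (-0.0598) lay just below replicate 4 (-0.0594). Replicates 1 and 4 held the 2 highest values in 1 of 8, Hk2, against 15.3%. The pair was picked after the values of these genes were seen, so the percentages only describe, and no test was made.

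**Figure D3:**
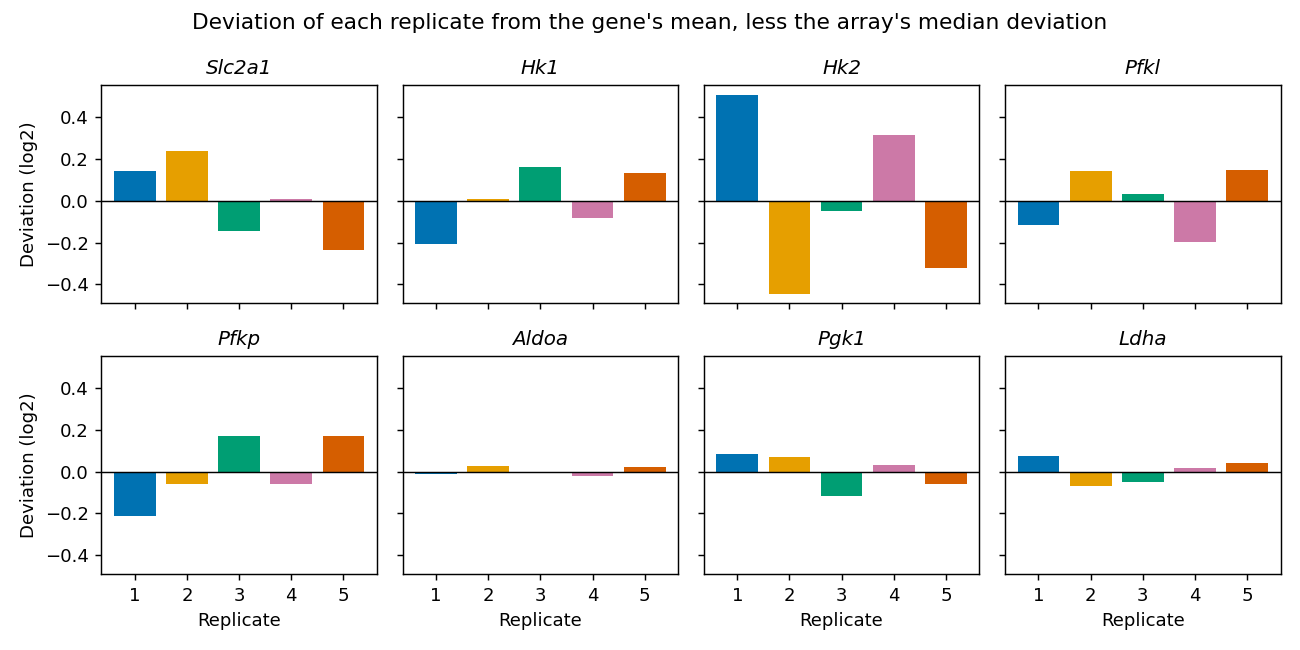
Deviation of each replicate (horizontal axis) from the mean of the gene, in log2 units and after subtracting the array's median deviation, for the 8 genes on a common vertical axis. Hk2 spans the widest range, from -0.44 in replicate 2 to 0.51 in replicate 1, and Aldoa stays within 0.028 of zero.

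Some other measures also had replicates 1 and 4 together at one end. The 3′ to 5′ difference of the Gapdh controls was smallest there (1.27 and 1.39, against 1.52 to 1.67 in the others), while that of Actb was not (0.60 and 0.55, against 0.54, 0.84 and 0.56 in replicates 2, 3 and 5). List deviations are averaged over the markers above background. The 11 alveolar type 2 markers had 0.034, -0.028, 0.023, 0.084 and -0.10 in replicates 1 to 5, highest in replicates 4 and 1. The 10 alveolar type 1 markers, all above background with a mean level of 12.72 to 13.08, had deviations of -0.22, 0.13, 0.13, -0.11 and 0.084. They were lowest in the replicates where the signals of Hk1, Pfkl and, by a narrow margin, Pfkp were lowest. The 7 neutrophil markers, all above background with a mean level of 8.13 to 10.14, had 0.51, -0.33, -1.12, 0.90 and 0.051. Of 6 erythroid markers only Alas2 and Slc4a1 passed, and Hba-a1, Epb42, Hemgn and Rhag did not; the mean level over all 6 was 5.32 to 5.94. Deviations of the 2 called markers averaged 0.60, -0.55, -0.27, 0.64 and -0.41, and those of all 6 averaged 0.27, -0.31, -0.27, 0.33 and -0.012. Replicates 1 and 4, high for Hk2, were thus the highest for the alveolar type 2, neutrophil and erythroid lists. The part of RNA quality and of alveolar type 2, alveolar type 1, neutrophil or erythroid transcripts in the Hk2, Hk1, Pfkl and Pfkp values was not tested. Ciliated deviations were 0.89, 0.26, -0.45, -0.35 and -0.33, highest in replicates 1 and 2 like Slc2a1, and their part was not tested either. Replicate 3, where Pgk1 was lowest, was also lowest for the neutrophil and ciliated lists. It was lowest too for fibroblast and smooth muscle (-0.74), heart and skeletal muscle (-0.91) and macrophage and leukocyte markers (-0.42). Those lists had 9 of 10 markers above background each. The same held for club and secretory (-0.34, 8 of 8 above background) and endothelial markers (-0.15, 10 of 10). Club and secretory markers had a mean level of 11.80 to 12.47 per array. The part of all these lists was likewise not tested.

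Around these genes, 67 of 72 listed genes of glucose metabolism were measured, and 62 of 67 (92.5%) lay above background by the limma test, against 78.2% of genes outside the receptor set. The F test of spread called 0 of the 67 after adjustment. At an unadjusted p under 0.05 it gave 5, against 5.58% of all genes.

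Among the other isoenzymes and steps of glycolysis, 16 of 17 were above background. The hexokinase genes Hk3 and Hkdc1 had 6.94 ± 0.17 and 9.38 ± 0.088, the muscle phosphofructokinase gene Pfkm 9.93 ± 0.13 and the brain aldolase gene Aldoc 9.89 ± 0.096 (n = 5 each). Pgk2, the phosphoglycerate kinase of sperm, had 5.10 ± 0.13 and was not called (limma adjusted p = 1). In the other glucose transporters 9 of 11 were called: Slc2a3 had 8.07 ± 0.57 and Slc2a4, the insulin-responsive transporter, 7.001 ± 0.47, whereas the liver transporter Slc2a2 (4.08 ± 0.82) and the fructose transporter Slc2a5 (5.31 ± 0.19, limma adjusted p = 0.236) were not.

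Enzymes that set fructose 2,6-bisphosphate, the activator of phosphofructokinase, were called in 4 of 4. Pfkfb2 had 11.41 ± 0.11, Pfkfb3 9.34 ± 0.28, Pfkfb4 10.88 ± 0.19 and Tigar, which breaks the activator down, 10.76 ± 0.19. All 14 genes of pyruvate and lactate handling were called, among them the mitochondrial pyruvate carrier gene Mpc1 (11.63 ± 0.067) and the pyruvate dehydrogenase genes Pdha1 (12.47 ± 0.091), Pdhb (12.47 ± 0.071) and Dlat (10.26 ± 0.11).

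In gluconeogenesis, the making of glucose, 6 of 8 genes were called. Pyruvate carboxylase (Pcx, 9.50 ± 0.10), the mitochondrial PEP carboxykinase (Pck2, 11.47 ± 0.084) and fructose bisphosphatase (Fbp1, 9.64 ± 0.17) were above background. Cytosolic Pck1 (4.14 ± 0.28) and the glucose 6-phosphatase gene G6pc (3.53 ± 0.17), both known from liver and kidney, were not (limma adjusted p = 1 for each). All 6 pentose phosphate genes were called, with Pgls at 10.26 ± 0.19, Pgd at 12.78 ± 0.093, Rpia at 11.63 ± 0.082 and Rpe at 10.39 ± 0.044. The regulators were called in 7 of 7. The hypoxia factor genes Hif1a and Arnt had 12.72 ± 0.10 and 11.81 ± 0.13, Myc 8.80 ± 0.47 and Mlxipl, a glucose-responsive factor, 8.64 ± 0.27.

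**Figure D4:**
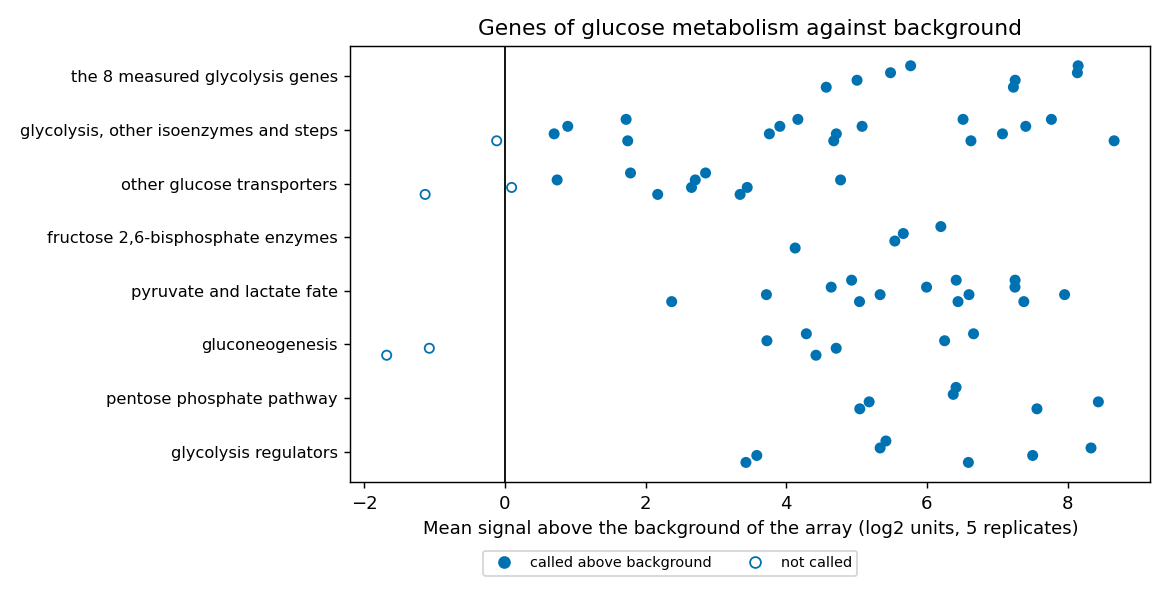
Mean signal above the background of the array (horizontal axis, log2 units, 5 replicates) for the 8 measured glycolysis genes and for 67 other genes of glucose metabolism in 7 lists, with 1 point per gene and open points for genes not called. The 5 open points are Pgk2, Slc2a2, Slc2a5, Pck1 and G6pc.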

How the data were processed

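Per the labels' protocols, RNA of 5 samples was amplified with a NuGEN Ovation kit, labelled with biotin and put on one-colour Affymetrix arrays. The authors deposited 1 log2 value per probe set and array; the log base was inferred from the values, and neither software nor normalization is given in the sources used here. Values were used as deposited. Of 45101 probe sets, 34958 had 1 gene symbol in a 2016 platform annotation, 932 had several and 9211 were unnamed here.

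After subtraction of the array's background, an intercept model was fitted with limma 3.58.1 under R 4.3.3 (mean-variance trend) and tested one-sided; 2 of the 74 receptor genes were called too. Spread was the variance over 5 arrays divided by the variance limma fitted for that signal (robust), with an F test on 4 and 4.22 degrees of freedom. P-values were adjusted over all genes. Both tests were run on simulated data first. There the gene variances scattered less around the trend than in these data, so that run does not give the power of the spread test here. The members, lists and tests were chosen with earlier results of these data known. Named genes were all members, the first 4 measured genes of each glucose list, and uncalled genes where a list had 5 or fewer; others are said to be chosen after their values were seen. With 5 arrays, under 6, no genes were matched to a member by correlation. Precision is limited by having 5 arrays. Alternatives were other backgrounds, probe set rules, normalizations, filters and fits, and leaving out replicates.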

Additional observations from a re-analysis of the deposited data

Results flagged for a closer look

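Of the 21 probe sets, 1 had a replicate far from the other 4. 1 of the 3 Pfkp probe sets read 6.34 in replicate 2, against 5.88 to 5.98 in the other replicates. It is the Pfkp probe set of mean 6.02, close to background, and the representative probe set of the gene did not stand out. Chance flags about 1 in 20 such sets of values.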

How the results depend on the processing

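All 109 recomputed single-gene values above background kept their direction and their call, from 0.40 to 8.47 log2 units (highest limma adjusted p = 0.0035), and all 93 recomputed variance ratios stayed uncalled (lowest adjusted p = 0.698). The F test called 0 of all 18194 genes. Even Scgb3a1, picked after its value was seen, had a variance ratio of 83.3 and was not called (limma F test, adjusted p = 0.810). Staying uncalled therefore says little about the spread of the members. Without probe sets ending in _s_at, _x_at or _a_at, 5 members could be tested and 5 were called; the last type reports several transcripts of 1 gene and was the only one for Hk1 and Ldha, and Aldoa had only _x_at. With every probe set tested on its own, 21 of 21 were called for the members and 115 of 130 for the other genes of glucose metabolism. Of all probe sets outside the receptor set, 75.8% were called. With a background of organ-restricted genes (9.16 to 9.53 per array, as 19 of the 39 gave signal themselves) 8 members and 40 of the 67 other genes were called. The share of all genes called with that background, or without the probe sets left out above, is not given here. Those counts are therefore not compared with the whole array. The range of the mean deviation was 0.068 log2 units with the median over probe sets. Replicate 1 was highest in every setting, but the lowest array changed. It was replicate 5 as reported and replicate 4 without subtracting the array's median deviation. With the median over members or over probe sets it was replicate 3. Leaving out each replicate gave 8 to 8 members and 62 to 62 other genes called, and 0 to 0 members called for spread. Leaving out replicates 1 and 3 together, chosen after seeing the data, gave 8, 62 and 0. The Hk2 variance ratio ran from 5.59 without replicate 1 to 13.9 without replicate 3 (limma adjusted p = 0.898 and 0.698). No paired analysis was possible because there is 1 group.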

Other observations

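Among the 62 other glucose metabolism genes above background, replicates 1 and 4 held the 2 highest values in 20 (32.3%, against 15.3% of all genes above background) and the 2 lowest in 11 (17.7%, against 18.1%). This pattern was counted after the Hk2 values were seen and was not tested.

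The following genes were chosen after their values were seen, for an unadjusted spread p under 0.05. Pdk1, a kinase that holds pyruvate out of the mitochondrial cycle, had 12.24, 11.52, 11.64, 12.02 and 11.64 in replicates 1 to 5, a 1.65-fold range. Fbp2, a fructose bisphosphatase, had 12.21, 11.60, 11.58, 12.23 and 11.76, and Slc16a1, a lactate carrier, had 12.77, 12.59, 12.46, 12.88 and 12.28. These 3 genes were highest in replicates 1 and 4. Eno2, the neuronal enolase, had 9.75, 8.64, 9.53, 8.59 and 8.37, a 2.60-fold range with replicates 1 and 3 highest. Slc2a2, uncalled, had 5.20, 3.49, 3.27, 4.66 and 3.78. After adjustment over all genes the F test called 0 of these 5 (limma adjusted p from 0.810 to 0.858).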
